A study of Mus musculus with 8 samples.

Results

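Desert hedgehog (Dhh), a secreted signal, was followed together with 7 genes that receive or relay hedgehog signals: the receptor Ptch1, the transducer Smo, the decoy receptor Hhip, the GLI restraint Sufu and the transcription factors Gli1, Gli2 and Gli3. These 8 genes were found by symbol among the 34899 genes listed for sorted lung endothelium. Dhh was chosen by its HF against LF values in these same libraries, so its difference is given as a description and no test of it is used as support. The other 7 genes were added for their place in the pathway, to set the ligand beside its receptor and target genes. The cells were negative for CD45 and positive for CD31 and came from the lungs of female C57BL6 mice. There were 4 HF and 4 LF libraries, in keeping with the 4 mice a group of the series' design text. The labels do not spell out HF and LF and give no age or time, and the series title is about obesity, neutrophil oxidants and metastasis. No library is stated to be a pool of animals, and all share strain, sex and sorting gate.

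Hedgehog ligands are lipid-modified proteins that cells release to act on themselves or on their neighbours. Without ligand, the receptor Ptch1 holds Smoothened (Smo) inactive, and ligand binding lifts that hold. Smo then acts at the primary cilium to free the GLI transcription factors from Sufu. Gli1, Ptch1 and Hhip are themselves induced by GLI factors in many tissues, so their transcripts are often read as a measure of the response. Dhh is best known from Sertoli cells of the testis and Schwann cells of peripheral nerve and is also made by endothelium, while in the lung Shh from epithelium signals to the mesenchyme.

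Libraries held between 10631506 and 20781564 reads assigned to genes. LF 1 and LF 2 stood apart from the other 6, at -56.4 and -50.9 on the first principal component against -6.79 to 39.6. Provisional gene models, the GENCODE type TEC, took 0.725% of reads in LF 1 and 0.635% in LF 2 against 0.286% to 0.443% elsewhere. LF 3 and LF 4 were the lowest on the second component, at -38.5 and -34.2, so results are also given without each LF pair. All 10 endothelial markers checked, Pecam1 and Cdh5 among them, passed the filter, a normalised count of 10 or more in 4 or more libraries. Their summed level ran from 164370 to 187600 in HF and from 122770 to 200640 in LF. Sums over markers of other cells were smaller: 6 leukocyte markers ran from 3018 to 5553 in HF and 5066 to 6736 in LF, and 7 epithelial markers from 6827 to 12426 and 8956 to 15597. In these bulk samples a smaller share of cells of a type and less RNA per cell cannot be told apart.

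Dhh was at 279 normalised counts in HF 1, 233 in HF 2, 249.7 in HF 3 and 299 in HF 4. In LF it was at 123, 93.3, 121 and 158 in libraries 1 to 4. The lowest HF library thus lay above the highest LF library, and LF 2 was the lowest of all. The means were 265 ± 29.8 in HF and 124 ± 26.6 in LF (SD, n = 4), a fold of 2.16 with a 95% interval of 1.63 to 2.85 on the log2(value + 1) scale. Behind these values were 101 to 380 reads a library.

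The other ligands were hardly detected. Shh had 11 reads and Ihh 36 reads over all 8 libraries together, with at most 4.06 and 11.03 normalised counts in any library, so both fell under the filter. Dhh was therefore the 1 hedgehog ligand measured at a level that could be compared between groups.

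**Figure D1:**
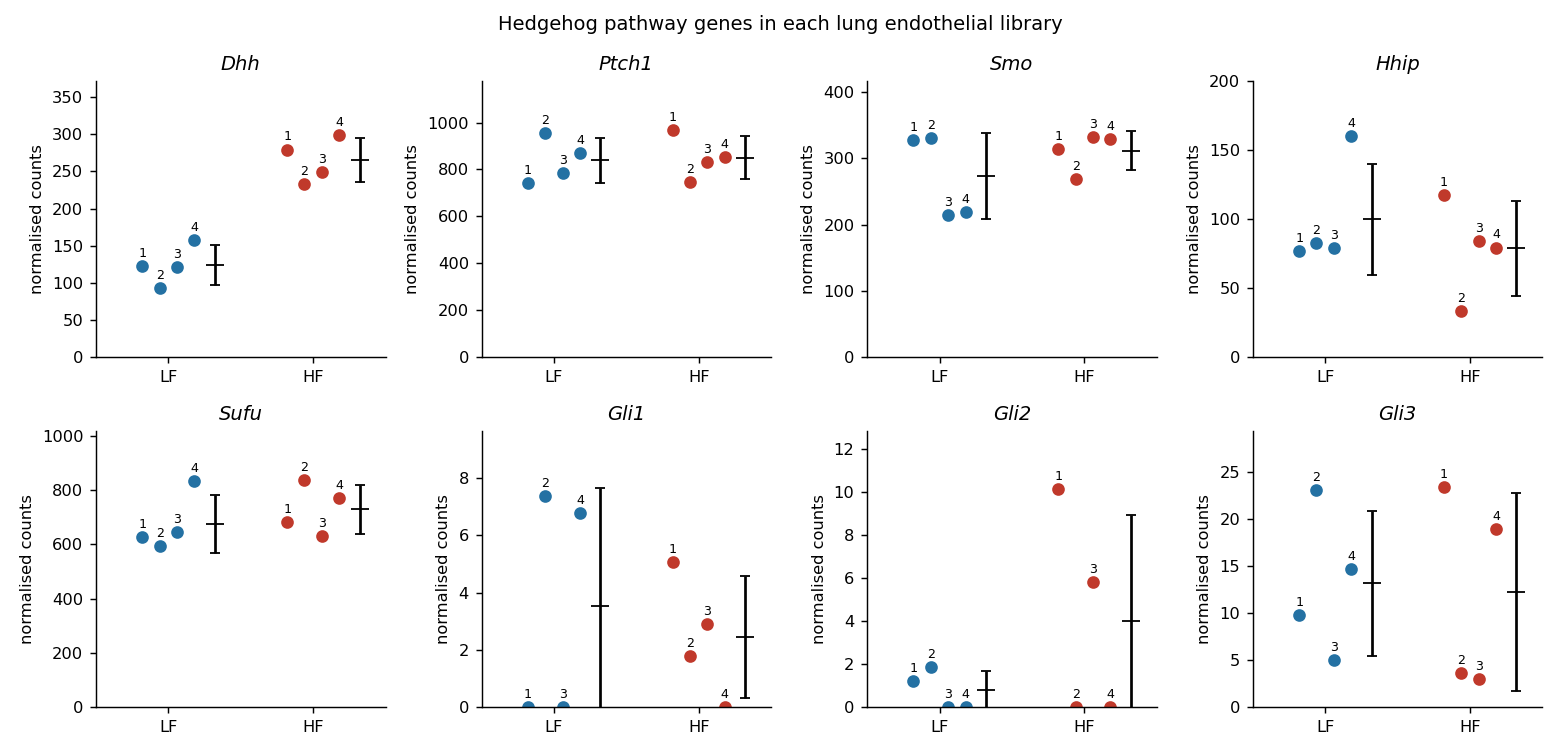
Normalised counts (vertical axes, each starting at 0) of the 8 pathway genes in LF (blue) and HF (red); points are libraries with their replicate number, and bars are the mean ± SD of 4. The 4 HF values of Dhh lie above the 4 LF values, whereas in the other 7 genes the groups overlap.

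In GENCODE M21 (GRCm38), Dhh (ENSMUSG00000023000) lies on the minus strand of chromosome 15 from 98891152 to 98898540, with 3 exons and 4399 exon bases. It shares 546 exon bases, 12.4% of its own, with Rhebl1, a small GTPase gene on the same strand. It also shares 1107 exon bases, 25.2%, with the antisense gene Gm49442. The sources used here do not say whether counting took account of strand. Rhebl1 was at 250.4 ± 25.3 in HF and 226 ± 37.3 in LF (n = 4), a fold of 1.11 (0.873 to 1.42), and Gm49442 at 16.2 ± 2.45 and 12.6 ± 5.64. The nearest gene on the higher side, Lmbr1l, encodes a membrane protein. It lies 5377 bases away and was at 605 ± 44.1 and 563 ± 68.3, a fold of 1.0795. On the lower side the RNA gene 5730414N17Rik, 17070 bases away, was at 30.1 ± 6.56 and 33.4 ± 6.52. In all 4 neighbours the groups overlapped, unlike in Dhh.

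The bases before the start of Dhh are shown beside those of Ptch1 and Hhip, the target genes among the 8 that passed the filter, because a GLI response is read at such genes. The sequences are from RefSeq (GRCm38.p6), which held a start region for 7 of the 8 genes, Gli1 being without one. Dhh is chr15:98898541-98898790, Ptch1 is chr13:63565736-63565985 and Hhip is chr8:80058009-80058258, all on the minus strand. Each is given 5′ to 3′ and ends at the base before the start. Capitals mark the GC box GGGCGG, bound by SP and KLF factors, and the KLF core CACCC, each searched on both strands.
Dhh: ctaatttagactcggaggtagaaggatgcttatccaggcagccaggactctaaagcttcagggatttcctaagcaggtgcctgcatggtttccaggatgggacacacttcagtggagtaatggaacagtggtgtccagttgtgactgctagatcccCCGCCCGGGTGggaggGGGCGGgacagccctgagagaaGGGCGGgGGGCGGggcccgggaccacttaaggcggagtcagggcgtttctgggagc
Ptch1: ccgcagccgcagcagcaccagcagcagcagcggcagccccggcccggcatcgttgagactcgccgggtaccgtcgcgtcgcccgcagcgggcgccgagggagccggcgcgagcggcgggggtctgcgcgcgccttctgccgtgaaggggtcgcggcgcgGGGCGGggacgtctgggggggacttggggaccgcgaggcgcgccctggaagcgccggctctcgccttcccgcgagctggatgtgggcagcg
Hhip: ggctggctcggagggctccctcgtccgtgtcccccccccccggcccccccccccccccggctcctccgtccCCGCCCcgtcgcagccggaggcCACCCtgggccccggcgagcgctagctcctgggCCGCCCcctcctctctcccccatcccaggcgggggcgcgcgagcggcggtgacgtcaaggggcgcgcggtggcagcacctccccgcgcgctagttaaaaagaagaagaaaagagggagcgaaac

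Dhh held 4 GC boxes in these 250 bases, a number that 4.09% of 32851 mouse start regions reached, and the nearest began 49 bases before the start. Hhip held 2 GC boxes and Ptch1 held 1, and 32.7% of all regions held at least 1. The KLF core CACCC occurred 1 time in Dhh, beside a GC box without overlapping it, 1 time in Hhip and 0 times in Ptch1, and 52.0% of all regions held it. The GLI consensus GACCACCCA was in none of the 7 regions and in 0.225% of all. A match in letters is not evidence of binding, and its absence says only that these letters are not in this window. GENCODE places a further start of Ptch1 beyond this window.

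The difference in Dhh was set beside the endothelial content of each library. Per 1000 counts of the 10 endothelial markers, Dhh was at 1.64, 1.25, 1.52 and 1.596 in HF 1 to HF 4 and at 1.004, 0.706, 0.690 and 0.789 in LF 1 to LF 4. The ratio of the group means was 1.88, and the groups did not overlap. Sums of 8 arterial markers were also higher in every HF library, at 24169 to 30203 against 18764 to 22778 in LF. So were sums of 5 general capillary markers, at 75369 to 89271 against 56057 to 71568. Taken singly, 3 of 7 arterial and 1 of 5 general capillary markers above the filter had separate groups with HF above. Over all genes tested this share was 3.47%. The 1 general capillary marker was Plvap, at 20925 to 29745 in HF and 11097 to 17897 in LF. The separation of the general capillary sums rested on Plvap, and without it the groups overlapped. Plvap made up 24437 of the sum of 75369 in HF 3 and 13238 of the sum of 71568 in LF 4. Per 1000 arterial counts, Dhh was at 9.22 to 11.6 in HF and 4.59 to 6.95 in LF, a ratio of means of 1.703. Per 1000 general capillary counts it was at 2.94 to 3.56 and 1.53 to 2.21, a ratio of 1.69. Against 6 venous markers the ratio was 1.76 and against 4 aerocyte markers 2.02, with no overlap of the groups. These ratios reuse the values by which Dhh was chosen and add no separate evidence. The part of cell content in the Dhh difference was not tested. Of 6 Schwann cell markers, Sox10, Cdh19 and Ngfr were under the filter, 2 passed, and Foxd3 is not listed. The summed level of the 5 listed was 81.9 to 134 in HF and 105 to 145 in LF.

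Of 6 genes for making and releasing the ligand, 5 passed the filter and 3 had the higher mean log2 value in HF. Scube1, which encodes a secreted protein of the family that carries hedgehog ligands off the cell surface, was at 1447, 1423, 1635 and 1673 in HF 1 to 4 and at 1272, 1386, 739 and 941 in LF 1 to 4. All HF values lay above all LF values, a fold of 1.46 (1.12 to 1.92; limma adjusted p = 0.285). Its relative Scube2 had overlapping groups and a fold of 0.704 (0.463 to 1.07). Disp2, of the dispatched family, was at 1331 to 2188 in HF and 795 to 2028 in LF, a fold of 1.33 (0.907 to 1.94; limma adjusted p = 0.569). Disp1, the transporter that exports lipid-modified ligand, had a fold of 1.05 (0.692 to 1.595) and lay between 52.2 and 124 counts. Hhat, the enzyme that adds palmitate to the ligand, had a log2 fold change of -0.11, with an interval from -0.85 to 0.62.

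Ptch1, the main receptor and a GLI target, showed no difference beyond the spread of the libraries. It (chromosome 13, 63508328 to 63573598) was at 969, 748, 833 and 852 in HF 1 to 4 and at 743, 956, 785 and 869.6 in LF 1 to 4. The highest value was in HF 1 and the lowest in LF 1, and the groups covered nearly the same range. Means were 850.5 ± 91.1 and 838 ± 94.5 (n = 4), a fold of 1.01 (0.838 to 1.23; limma adjusted p = 0.958). The interval leaves out a change in Ptch1 as large as that described for Dhh. Its log2 fold change of 0.02 turned to -0.091 with quantile normalisation.

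Smo (chromosome 6, 29735503 to 29761365) was at 314, 269, 332 and 329 in HF 1 to 4 and at 327, 331, 215 and 219 in LF 1 to 4. LF 1 and LF 2 were as high as the HF libraries, while LF 3 and LF 4 were the lowest of all. Its fold was 1.16 (0.886 to 1.52; limma adjusted p = 0.663). The sign depended on which LF libraries were kept, with a log2 fold change of 0.51 without LF 1 and LF 2, and one of -0.084 when LF 3 and LF 4 were left out.

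The co-receptors, which present ligand to Ptch1, were led by Boc, at 105 to 268 counts in single libraries and a fold of 0.960 (0.666 to 1.38). Cdon lay between 8.13 and 33.9 counts, with a fold of 0.805 (0.419 to 1.55). Gas1 was at 22.1 to 30.1 in HF and 6.79 to 24.0 in LF, a fold of 1.95 (1.06 to 3.59; limma adjusted p = 0.407), and rested on 6 to 31 reads a library. Lrp2, a large endocytic receptor, had 40 reads over the 8 libraries and was under the filter.

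Hhip, a membrane protein that binds and sequesters hedgehog ligands and is itself a GLI target, was at 118, 33.8, 84.5 and 79.6 in HF 1 to 4 and at 76.9, 83.1, 79.3 and 161 in LF 1 to 4. HF 2 was the lowest and LF 4 the highest, and the other 6 libraries lay between 76.9 and 118. Its fold was 0.761 (0.440 to 1.32; limma adjusted p = 0.688), and the log2 fold change of -0.39 became -0.144 without LF 4 and -0.0373 without HF 2. Over the same libraries, the summed level of 7 fibroblast markers was 1441 to 3268 in HF and 2280 to 4373 in LF, and that of 9 smooth muscle and pericyte markers 2343 to 2890 and 2795 to 4534. All 7 fibroblast markers had the lower mean log2 value in HF, while by mean counts Dcn and Lum were higher in HF. By mean log2 values, 53.2% of all genes tested were higher in HF. The part of these cells in the Hhip values was not tested.

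Sufu (chromosome 19, 46396896 to 46488804), which holds GLI factors in the cytoplasm, was at 684, 836, 632 and 770 in HF 1 to 4 and at 626, 593, 647 and 835 in LF 1 to 4. The highest HF and LF libraries were nearly equal, and the fold was 1.09 (0.876 to 1.35; limma adjusted p = 0.760).

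The GLI factors were close to the limit of detection. Gli1, the target most widely used to read hedgehog activity, was at 5.08, 1.78, 2.91 and 0 in HF 1 to 4 and at 0, 7.39, 0 and 6.79 in LF 1 to 4. This amounts to 24 reads in all, with 3 libraries at 0 spread over both groups. Gli2, an activator, was at 10.2, 0, 5.83 and 0 in HF and at 1.22, 1.85, 0 and 0 in LF, 19 reads in all. Both were under the filter and were not tested, and a difference between the groups was not detectable at this depth. Gli3, which acts mainly as a repressor, was at 23.4, 3.55, 2.91 and 18.9 in HF and at 9.76, 23.1, 5.02 and 14.7 in LF. It passed the filter in exactly 4 libraries, evenly split between HF and LF. Its fold of 0.771 had an interval of 0.282 to 2.10 (limma adjusted p = 0.833). Gli1 shares 62 exon bases with Arhgap9 and 265 with Gm47200, an antisense gene that is not among the listed genes. Gli3 shares 188 with Gm6556. All of these lie on the other strand, so reads of these genes cannot be told apart there without strand.

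Levels per kilobase of annotated exon put the genes on a common scale, as means over the 8 libraries with their SD. Of 13 ligand, receptor, GLI and regulator genes, Sufu was the highest at 91.4 ± 12.6 normalised counts per kb, above Ptch1 at 59.5 ± 6.07 in every library. Over the 8 libraries, Ptch1, Smo at 52.0 ± 9.01 and Dhh at 44.3 ± 18.2 did not differ beyond their spread. The spread of Dhh, however, took in its group means of 60.3 in HF and 28.2 in LF. Boc followed at 39.0 ± 10.2, within the spread of Dhh, then Hhip at 9.86 ± 4.04, Gas1 at 6.90 ± 2.88 and Cdon at 2.17 ± 1.04. Ihh, Gli3, Gli1, Shh and Gli2 were at 1.35 or less, with ranges that overlapped. In HF the mean of Dhh per kb was thus close to those of Ptch1, at 59.955, and Smo, at 55.4. In LF the mean of Dhh was well below those of Ptch1, at 59.1, and Smo, at 48.6. Gli1 was at 0.599 ± 0.617 over the 8 libraries. Union exon lengths can exceed those of the transcripts in use, 14185 bases for Ptch1, and would then understate a level.

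**Figure D2:**
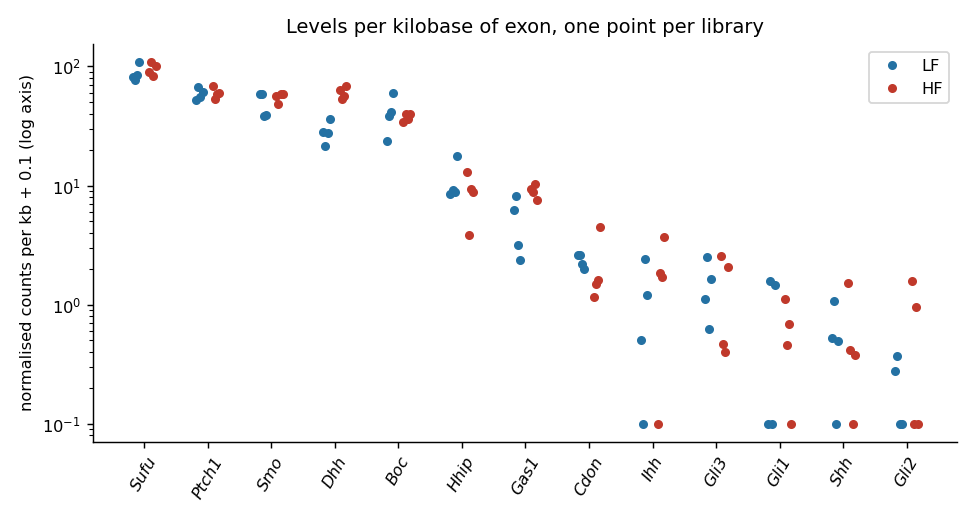
Normalised counts per kilobase of exon, plus 0.1, on a log axis for 13 ligand, receptor, regulator and GLI genes in order of their mean; each point is a library, LF in blue and HF in red. Sufu, Ptch1, Smo and Dhh lie at the top, and Ihh, Gli1, Shh and Gli2 reach 0 counts, drawn at 0.1, in part of the libraries.

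Of the 8 genes, 6 passed the filter and 0 were called by limma at a Benjamini-Hochberg adjusted p under 0.05, where 0% of 17067 genes tested were called (1882 genes, 11.0%, had an unadjusted p under 0.05). The quasi-likelihood test of edgeR, run on recovered reads, called 0 of the 6 and 0% of all genes (1905 at an unadjusted p under 0.05). Of the 6, 4 had a log2 fold change above 0, against 53.2% of genes tested, and their median was 0.07 against 0.02 over all genes. Dhh was the 1 gene of the 6 whose groups did not overlap, with HF above LF, a pattern that 3.47% of genes tested shared. Since Dhh was picked for that contrast, nothing is read from its count. Without Dhh, none of the 5 had an unadjusted p under 0.05 or separated groups. In the authors' deposited table the log2 fold changes were 1.10 for Dhh, 0.02 for Ptch1, 0.19 for Smo, 0.11 for Sufu and -0.34 for Hhip, with adjusted p values of 0.966, 0.740, 0.815 and 0.749 for the last 4.

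In fits without either LF pair, Dhh was called and the other 5 were not. Leaving out LF 1 and LF 2 gave it a log2 fold change of 0.92, and limma then called 3.76% of genes. Leaving out LF 3 and LF 4 gave 1.29, and limma then called 20.0%. DESeq2 on the recovered reads called Dhh (log2 fold change 1.082) and 1.83% of genes. These fits share libraries with the values that chose Dhh and add no separate evidence.

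**Figure D3:**
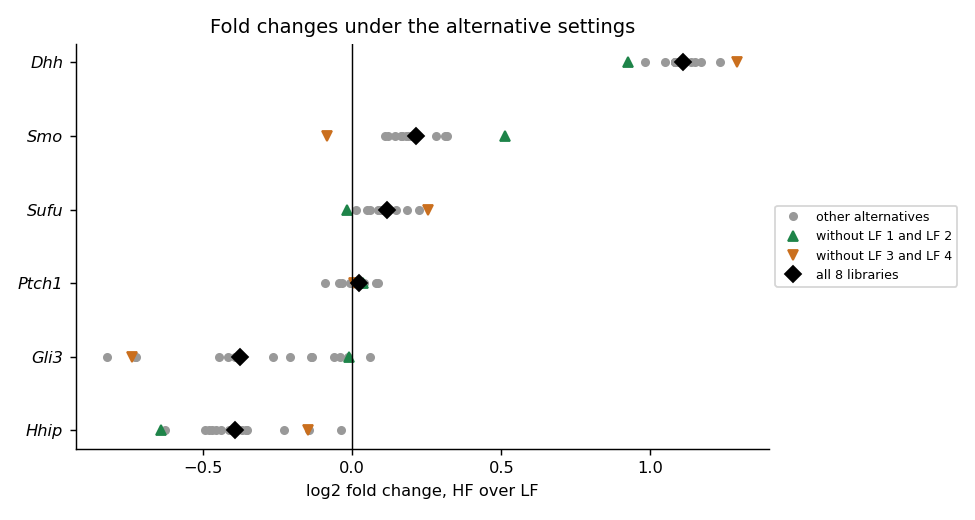
Log2 fold change of HF over LF (horizontal axis) for the 6 pathway genes above the filter, with all 8 libraries (black), without an LF pair (green and orange triangles) and under the other alternatives (grey). Dhh lies between 0.92 and 1.29 throughout, and Ptch1 ranges from -0.0912 to 0.0866.

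Beside the 8, the pathway lists held 30 further genes for ligand release, reception and relay, of which 26 passed the filter and 0 were called by limma. At an unadjusted p under 0.05, 4 were higher in HF and 1 lower, where 6.36% and 4.67% of all genes were. The 4 were Scube1, Gas1, Kif7 and Prkaca, and the 1 was Spop. Groups did not overlap with HF above in 2 of the 26, Scube1 and Kif7, against 3.47% of all genes, and with HF below in 2, Spop and Dyrk2, against 1.96%. The median log2 fold change of the 26 was 0.05, against 0.02 over all genes tested.

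Of 19 relay genes, Sufu included, 12 had the higher mean log2 value in HF. Kif7, a ciliary kinesin that organises GLI and Sufu at the cilium tip, was at 44.4 to 63.0 in HF and 28.3 to 39.7 in LF, a fold of 1.52 (1.04 to 2.23; limma adjusted p = 0.402). It overlaps Ticrr and an antisense RNA on the other strand. Spop, an adaptor that leads GLI factors to degradation, was at 3753 to 4127 in HF and 4313 to 5285 in LF, a fold of 0.809 (0.682 to 0.960; limma adjusted p = 0.350). Prkaca, a catalytic subunit of the protein kinase A that phosphorylates GLI factors, was at 227, 356, 609 and 658 in HF 1 to 4 and at 383, 260, 175 and 154 in LF 1 to 4, so HF 1 lay within the LF range, and its fold was 1.86 (1.10 to 3.14; limma adjusted p = 0.372).

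All 16 primary cilium genes passed the filter and 0 were called, with 7 of 16 higher in HF and a median log2 fold change of -0.019. Ift140, a subunit of the transport complex that returns cargo from the cilium tip, was at 235 to 292 in HF and 298 to 393 in LF, a fold of 0.786 (0.630 to 0.980; limma adjusted p = 0.411). It lies across Tmem204 on the other strand.

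**Figure D4:**
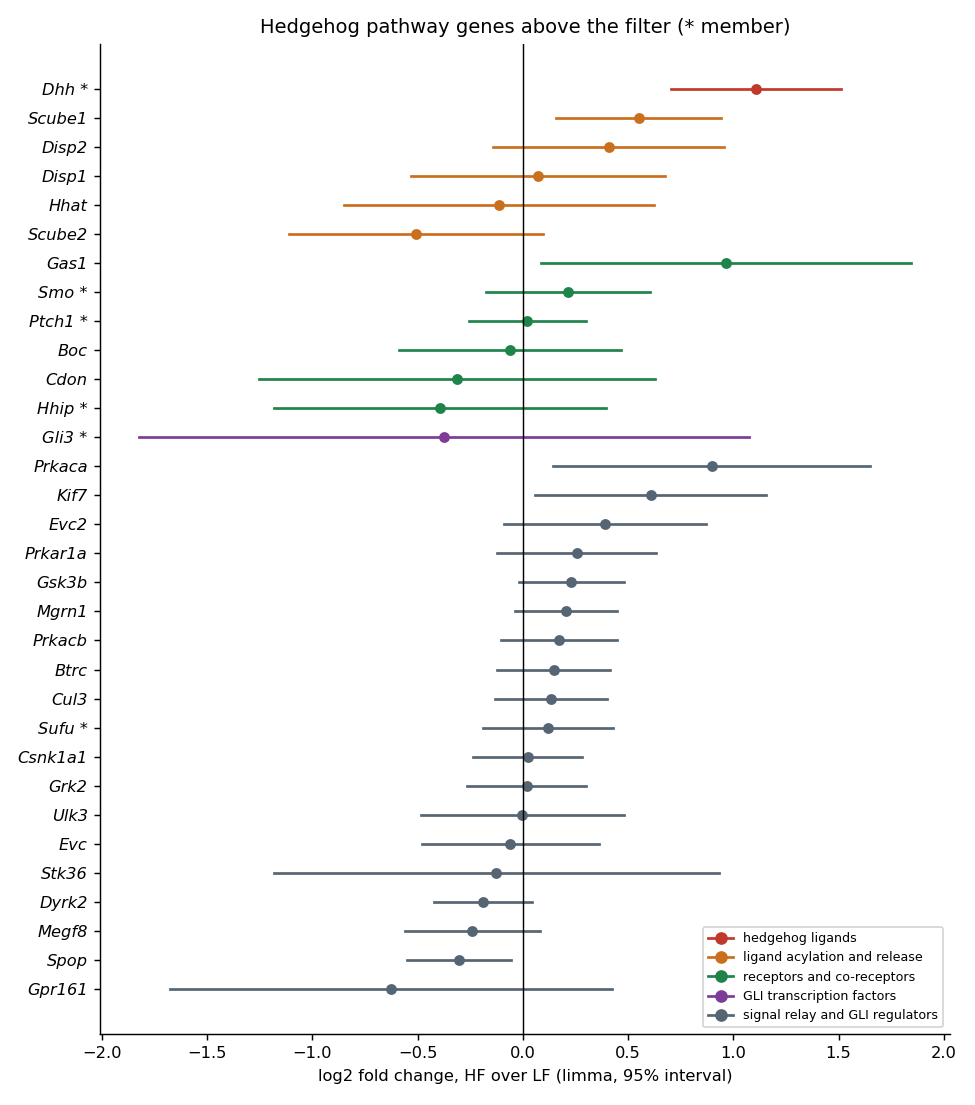
HF over LF log2 fold change, with the 95% interval from limma, for the 32 ligand, release, receptor, GLI and relay genes above the filter, coloured by role, asterisks marking the 6 of the 8 genes. Dhh has the highest fold change at 1.11 and Ptch1 sits at 0.02.

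Profiles over the 8 libraries were compared by the mean absolute difference between 2 genes' log2 deviations from their own means, where 0 is the same profile. Ptch1 differed from Dhh by 0.54, Smo by 0.50, Sufu by 0.495 and Hhip by 0.75. Of 12202 genes with a mean of at least 50, the share closer to Dhh was 56.2% for Ptch1, 38.7% for Smo, 36.8% for Sufu and 90.2% for Hhip. The median difference over those genes was 0.526. These pathway genes were not among the genes nearest to the ligand. A gene without the HF against LF difference of Dhh lies away from it by construction, so this adds no evidence beyond the fold changes. Among the 6 nearest of 10920 named genes were Lipe, a lipase that mobilises stored fat (0.16), Cpt1a, which admits fatty acids to mitochondrial oxidation (0.18), Them6 (0.19), the glycosyltransferase Galnt10 (0.21) and the calcium channel Orai1 (0.22). In these 5, every HF value lay above every LF value, and all but Cpt1a overlap a gene on the other strand. Lipe was at 2145 to 2349 in HF and 821 to 2035 in LF, and shared with Dhh its lowest library, LF 2, and the highest LF value in LF 4. Since Dhh was chosen for its HF against LF difference, genes near it share that difference by construction.

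**Figure D5:**
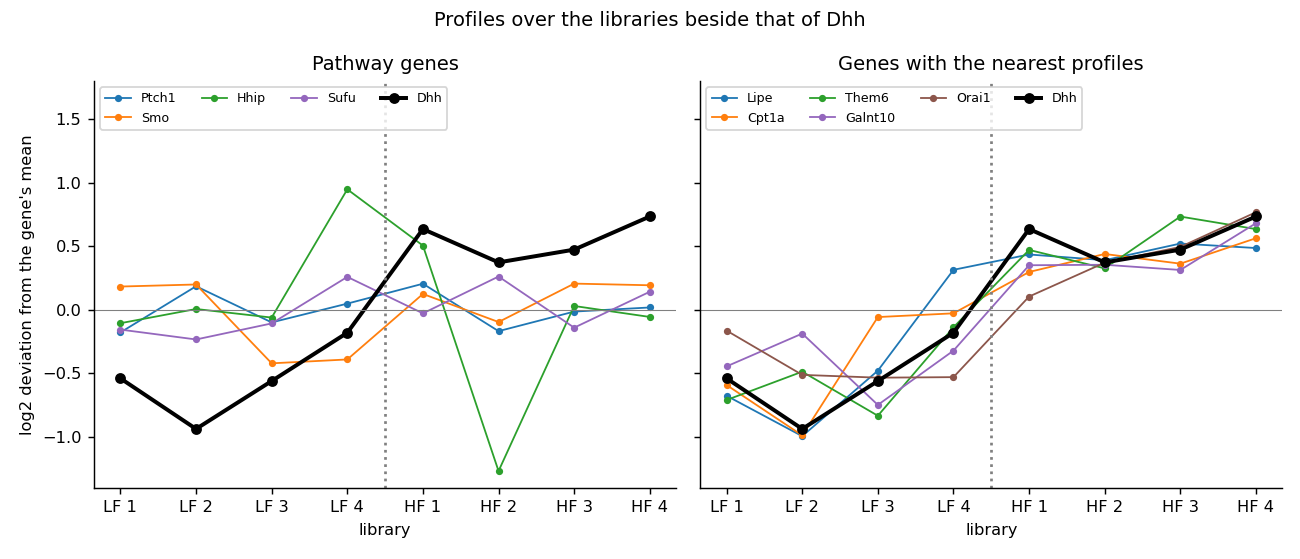
Log2 deviation of each gene from its own mean (vertical axis) in the 8 libraries (horizontal axis), with Dhh in black beside 4 pathway genes (left) and 5 of the 6 genes with the nearest profiles (right); lines only join the points of a gene. On the left Dhh is the 1 gene whose groups do not overlap, and on the right all 5 lie higher in every HF library than in any LF library.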

How the data were processed

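RNA was isolated with TRIzol LS and made into libraries with a SMART-Seq kit, per the labels' protocols. STAR 2.6.1b, featureCounts 2.0.0 and DESeq2 1.24.0 were used, per the submitters' processing notes. The sources used here give no build, annotation or strand setting. The authors deposited 1 table of normalised counts, a signal without scaling for length. Per the file headers it also holds, from the authors' HF against LF comparison, a log2 fold change with its standard error, a Wald score, and a p-value and adjusted p-value.

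Multiplying each library's values by its recovered size factor gave whole reads, within 0.01 reads, for 100% of values. Depth, 10631506 to 20781564 reads a library, limits genes with low counts. All 34899 gene IDs matched GENCODE M21.

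The 17067 genes that reached 10 normalised counts in 4 or more libraries were tested with limma 3.58.1 (R 4.3.3), with a mean-variance trend, on log2(value + 1), two-sided, without covariates and with Benjamini-Hochberg adjustment. For low genes, folds on this scale depend on the value added and can differ from those of count tests. The log2 fold change of Gli3 was -0.375 with 1 added, -0.208 with 5 added and -0.137 by edgeR. edgeR 4.0.16 and DESeq2 1.42.0 on the recovered reads were alternatives, and all tests were tried on simulated data. Other alternatives were pseudocounts of 0.5 and 5, other filters, quantile and TMM scaling, a replicate block, a threshold of 0.10 and leaving out libraries. Columns of per-sample values without a sample numbered 0.

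The genes followed, the lists and the tests were chosen with earlier results of these data known. The text names all 8 genes, up to 4 genes of each pathway list by smallest unadjusted p, and undetected ligands and receptors. It also names overlapping and neighbouring genes of Dhh, and genes among the 6 nearest to it in profile, not all of which are reported. Disp1, Boc and Dyrk2 fall outside the smallest p and were named after their values were seen. The markers Plvap, Gja5 and Sox17 were also named after their values were seen. Not every gene that the rule allows is named. Separately, a few genes are not reported here and were taken out of the lists before the counts were made.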

Additional observations from a re-analysis of the deposited data

Results flagged for a closer look

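In Hhip, LF 4 was at 160.6 normalised counts while the other 3 LF libraries lay between 76.9 and 83.1, so its gap to the nearest was 0.925 of the range of the group, above Dixon's critical value of 0.829 for 4 samples. Both groups of 8 genes (16 in all) were examined and 1 was singled out, and chance alone does so in about 1 group in 20.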

How the results depend on the processing

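No gene of the whole table was called with all 8 libraries by limma, and the count was 313 by DESeq2, 1 without a filter, 0 to 1 with a library left out (1 without LF 2 or LF 4), 641 without LF 1 and LF 2, and 3421 when LF 3 and LF 4 were left out. Of the 8 genes, limma called 0 with all libraries and with each library left out (0 to 0), while DESeq2 and the fits without either LF pair each called 1, Dhh. Dhh kept its direction in all 19 alternatives (log2 0.92 to 1.29), as did Hhip (-0.64 to -0.037). Ptch1 changed sign by DESeq2 (-0.000905), with quantile normalisation (-0.0912), and without HF 1 (-0.0437), LF 1 (-0.0345) or LF 3 (-0.00816), with a highest value of 0.0866 without LF 2. Smo did so without LF 3 and LF 4 (-0.0842), Gli3 without HF 3 (0.0581, against -0.821 without HF 1) and Sufu without LF 1 and LF 2 (-0.0171); the cause was not tested. With the replicate number as a block, 0 genes were called and Dhh stayed at a log2 fold change of 1.11 (limma adjusted p = 0.332). Deviations of same-numbered HF and LF libraries had correlations of 0.115, -0.222, -0.143 and 0.185. Differently numbered pairs reached 0.306 (HF 1 with LF 2) and -0.220 (HF 4 with LF 2), so the same-numbered pairs did not stand out. This cannot decide whether they share a batch, because the deviations also carry every other difference among the libraries. Depth limits Gli1, Gli2, Gli3 and Gas1, which rest on at most 31 reads a library.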

Other observations

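Of 14 genes described as hedgehog targets in other tissues, 12 passed the filter, 0 were called by limma and 4 had the higher mean log2 value in HF (median log2 fold change -0.12). Foxf1, a forkhead factor of lung mesenchyme and lung endothelium, was at 10820, 15572, 16262 and 20075 in HF 1 to 4 and at 8213, 8045, 6273 and 7682 in LF 1 to 4, with separate groups, a fold of 2.04 (1.55 to 2.69; limma adjusted p = 0.124). It shares its locus with the gene model Gm20388 on the same strand. Spp1, the secreted phosphoprotein osteopontin, had a fold of 0.752 (0.587 to 0.965; limma adjusted p = 0.387), and its groups overlapped.

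All 4 flow-responsive endothelial genes listed had the higher mean log2 value in HF, and 0 were called by limma. Of all genes tested, 53.2% were higher in HF. So were 9 of 10 endothelial, 7 of 7 arterial and 5 of 5 general capillary markers above the filter. For venous markers it was 3 of 5, for aerocyte markers 2 of 4 and for lymphatic markers 2 of 5. Klf2, the transcription factor induced by laminar flow, was at 5639, 7445, 11260 and 12050 in HF 1 to 4 and at 6491, 4882, 3023 and 2750 in LF 1 to 4. Its fold of 2.16 (1.39 to 3.35; limma adjusted p = 0.191) was close to that of Dhh, but HF 1 lay below LF 1. Of genes with a mean of at least 50, the share closer to Dhh in profile was 47.4% for Klf2 and 13.3% for the related factor Klf4. It was 4.98% for Thbd, which encodes the anticoagulant receptor thrombomodulin, and 2.75% for Nos3, the endothelial nitric oxide synthase. For the arterial markers Gja5 and Sox17 it was 1.02% and 13.9%. Since Dhh was chosen for its HF against LF difference, genes with that difference lie nearer to it by construction. Nos3 had a fold of 1.38 (1.06 to 1.79; limma adjusted p = 0.352), its groups overlapped, and it overlaps Gm15587 and Atg9b on the other strand.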
